A study of Mus musculus with 2 samples.

Results

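Carbonic anhydrases were followed in the calf muscle (gastrocnemius) of old male mice. Of the 16 genes of the family among 55536 annotated genes, 9 are described: Car2, Car3, Car4, Car5b, Car8, Car11, Car12, Car13 and Car14. They were picked by name, with earlier results from these libraries already in view, so their levels and differences are given as a description, without a test of their own. The animals were B6CASTF1/J mice, a first-generation cross of C57BL/6J and CAST/EiJ, at an age of 18 to 20 months per the sample descriptions, although a separate age field reads unknown. Total RNA was sequenced from 300 ng per library with ERCC spike-ins, synthetic RNAs added as a yardstick. The study has 1 group of 2 untreated libraries, replicate 1 with 40795740 and replicate 2 with 44919441 expected counts (reads assigned to genes, with ambiguous reads shared out). The sample descriptions name the libraries biological replicates 1 and 2, each with technical replicate number 1. The labels number the 2 males differently but list a single donor record. The spread between the libraries may therefore be between animals, as the replicate labels have it, or technical. With no second condition, the questions are how much of each gene the muscle held, how unequal the 2 libraries were, and whether the authors' 2 quantifications of each library gave the same values.

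Carbonic anhydrases are zinc enzymes that speed the interconversion of carbon dioxide and water with bicarbonate and a proton. In muscle they are known for easing the removal of carbon dioxide and acid from working fibres. Histidines hold the zinc, a further histidine passes protons in the fastest enzymes, and family members that have lost the zinc ligands no longer catalyse the reaction. By place in the cell, Car2, Car3 and Car13 are cytosolic, Car5b is mitochondrial, Car4, Car12 and Car14 are bound to the cell surface, and Car8 and Car11 are related proteins without catalysis.

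The zinc site is the part of the sequence on which catalysis rests. The coding stretch that holds the 3 zinc ligands is shown for Car2 as the classical fast enzyme, for Car3 and Car14 as the most abundant members, and for Car11 as a member that departs from the site. Capitals mark the 3 codons aligned to the zinc-binding histidines at codons 94, 96 and 119 of Car2. The sequences are coding strand, 5′ to 3′, from GENCODE M21 transcripts (GRCm38, the assembly called mm10), that is from the C57BL/6J reference and not from the CAST/EiJ allele. Each stretch joins 2 exons, so its coordinates span an intron: Car2 chr3:14895063-14895546 (exons 3 and 4, plus strand), Car3 chr3:14866844-14868360 (exons 3 and 4, plus strand), Car14 chr3:95900015-95900323 (exons 4 and 5, minus strand) and Car11 chr7:45702542-45702844 (exons 4 and 5, plus strand).
Car2: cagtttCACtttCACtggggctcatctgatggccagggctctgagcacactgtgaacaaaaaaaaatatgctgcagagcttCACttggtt
Car3: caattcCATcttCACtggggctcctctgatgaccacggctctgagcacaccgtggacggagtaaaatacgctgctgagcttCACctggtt
Car14: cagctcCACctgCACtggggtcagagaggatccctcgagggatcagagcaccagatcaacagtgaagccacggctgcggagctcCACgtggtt
Car11: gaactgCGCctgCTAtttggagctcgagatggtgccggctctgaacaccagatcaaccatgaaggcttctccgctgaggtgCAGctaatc

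All 3 marked codons encode histidine in Car2, Car3, Car4, Car5b, Car12, Car13 and Car14. In Car11 none of the 3 encodes histidine: codon 134 is CGC (arginine), codon 136 is CTA (leucine) and codon 159 is CAG (glutamine). The codons of Car8 at these places are not reported here.

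Car3 differs from Car2 at another pair of places in the active site, shown here because Car3 is the most abundant member. The first pair of lines covers the wall of the pocket, with the codon aligned to codon 197 of Car2 in capitals (Car2 chr3:14897983-14898012 and Car3 chr3:14870111-14870140, both in exon 6, plus strand). The lines after it cover the proton shuttle, with the codon aligned to codon 64 of Car2 in capitals (Car2 chr3:14887977-14888003 and Car3 chr3:14864393-14864419, both in exon 2, plus strand, and Car5b chrX:164000267-164000293, exon 3, minus strand).
Car2 wall: taccctggctctCTGaccactccgcctctg
Car3 wall: tatcacggctccTTCaccacgccgccctgc
Car2 shuttle: gtcaacaacggcCACtcctttaacgtt
Car3 shuttle: ctgaacaatgggAAGacctgcagagtt
Car5b shuttle: tggaacaatgggTACtcttttcttgtg

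Car3 was alone among the 9 in carrying phenylalanine (TTC) at the wall, where the other members encode leucine. At the shuttle Car3 encodes lysine (AAG), Car5b tyrosine (TAC) and Car11 arginine (CGC), against histidine in the other 6. Car3 is known as a slow enzyme for carbon dioxide, and the bulky wall residue and the missing shuttle histidine are textbook features of it. Over the whole coding sequence Car3 shared 60.8% of aligned residues with Car13 and 56.9% with Car2, and the lowest identity between members was 25.5%, between Car4 and Car11.

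Car3, Car2 and Car13 lie together on mm10 chromosome 3. Car13 (ENSMUSG00000027555.8) spans 14641727 to 14663002, Car3 (ENSMUSG00000027559.5) spans 14863512 to 14872523 and Car2 (ENSMUSG00000027562.12) spans 14886273 to 14900770, all on the plus strand, with Car1 on the minus strand between Car13 and Car3. Although neighbours, these genes stood at very unequal levels. Car14 (ENSMUSG00000038526.14) lies further along chromosome 3, at 95897768 to 95904691 on the minus strand, and shares 445 exon bases with Aph1a on the other strand. Whether the counting used strand is not given in the sources used here. Car14 had whole-number counts (946 and 1061) with a deposited posterior standard deviation of 0, so none of its reads was recorded as shared out with Aph1a. Aph1a had 865 and 1241 counts in replicates 1 and 2.

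Levels are given in TPM, the abundance per transcript length scaled to a fixed total in each library. Car3 led the family by a wide margin. It stood at 161 TPM in replicate 1 and 611 TPM in replicate 2 (386 ± 318, SD, n = 2), from 8036 and 33278 counts. It ranked 315th and 67th among 22015 nuclear protein-coding genes. Replicate 2 was far above replicate 1 for this gene.

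Car14, a membrane enzyme whose catalytic part faces outward, came next with 22.06 and 22.87 TPM (22.5 ± 0.57, SD, n = 2). The 2 libraries were almost level. Car3 was above Car14 by 7.32 times in replicate 1 and 26.7 times in replicate 2.

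Car11, a secreted relative without catalysis, had 7.04 and 7.31 TPM (7.18 ± 0.19, SD, n = 2). Car2, the fast cytosolic enzyme known from red cells, kidney and bone, had 4.76 and 8.02 TPM (6.39 ± 2.31, SD, n = 2). The ranges of Car11 and Car2 overlapped, with Car11 higher in replicate 1 and Car2 higher in replicate 2, so their order was not resolved. Car4, the lipid-anchored enzyme of capillary walls and of the muscle membrane, had 1.86 and 2.02 TPM (1.94 ± 0.11, SD, n = 2).

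The other 4 members had a mean below 1 TPM. Car8, which binds the inositol trisphosphate receptor, stood at 0.67 and 1.22 TPM, on either side of that mark. Car5b, the mitochondrial enzyme, stood at 0.53 and 0.63 TPM, and its mean lay below that of Car8 by less than the SD of Car8 (0.39). Car13, a cytosolic enzyme, had 0.13 and 0.35 TPM from 9 and 27 counts. Car12, a membrane enzyme, had 0.04 and 0.10 TPM from 5 and 10 counts and was the lowest. Apart from Car11 and Car2, no neighbours in this order had overlapping ranges, with 2 libraries each. In the gene table the deposited posterior standard deviation of the count was 0 for each of the 9 in both libraries. In the second quantification Car8, with 1 annotated transcript, had fractional counts (88.5 and 179), so some of its reads were shared out with another gene there.

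**Figure D1:**
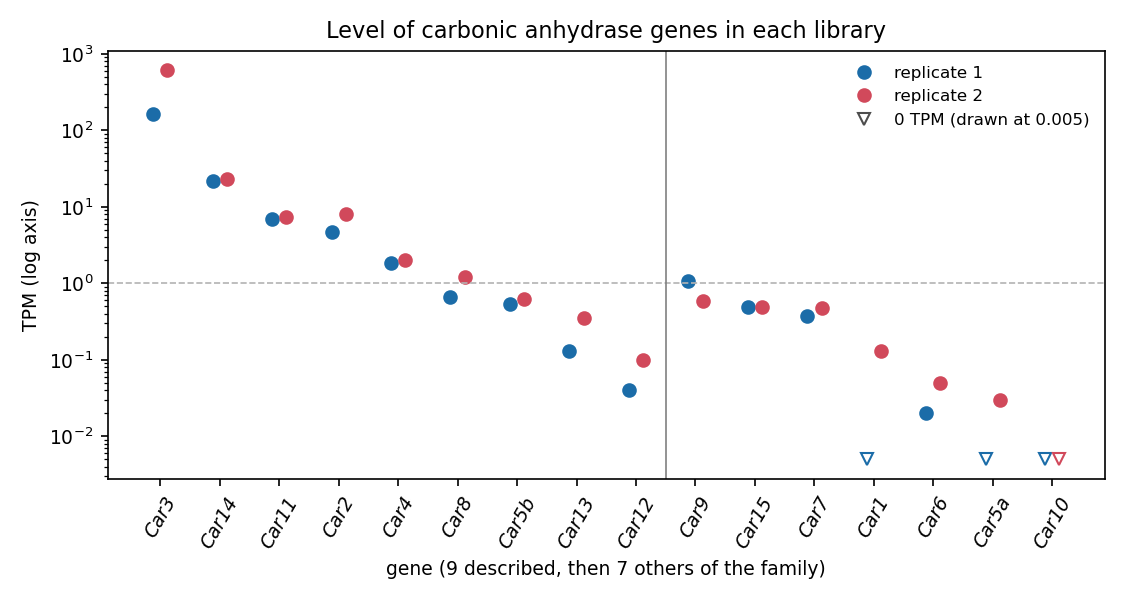
TPM (log axis) of the 9 described carbonic anhydrase genes, ordered by mean, and of the 7 others to the right of the vertical line, one point per library (blue, replicate 1; red, replicate 2). Open triangles mark 0 TPM, drawn at 0.005, and the dashed line marks 1 TPM. Car3 lies above all others in both libraries, at 161 and 611 TPM.

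The 7 other genes of the family added little. Car9, the membrane enzyme known for its induction by low oxygen, had 1.06 and 0.59 TPM, and Car7, a cytosolic enzyme, 0.38 and 0.47 TPM. Car15 had 0.49 TPM in both libraries, but it shares 1253 exon bases with Gm20518 on the same strand, so its value is uncertain. Car1, the abundant enzyme of red cells, had 0 counts in replicate 1, which allows up to 3, and 5 in replicate 2. Car5a, the liver-type mitochondrial enzyme, had 0 and 1 counts, and the secreted Car6 had 1 count in each library. Car10, another relative without catalysis, had 0 in both, and each 0 again allows up to 3. In the second quantification Car5a had 7.02 and 4.04 counts and Car10 had 4 and 1. The 9 described genes held 99.03% of the family's TPM in replicate 1 and 99.73% in replicate 2.

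Summed over all 16 genes, the family stood at 201 TPM in replicate 1 and 655 TPM in replicate 2 (428 ± 321, SD, n = 2). Car3 held 80.5% and 93.2% of it (86.9 ± 8.99%, SD, n = 2). Without Car3 the sum was 39.0 and 44.3 TPM (41.7 ± 3.71, SD, n = 2), so Car3 made up 98.85% of the difference of 454 TPM between the libraries. Car14 was the next largest share, 11.0% in replicate 1 and 3.49% in replicate 2, a smaller share at a nearly level TPM. Grouped by place in the cell, cytosolic enzymes had 167 and 620 TPM, cell-surface enzymes 25.5 and 26.1 TPM, the relatives without catalysis 7.71 and 8.53 TPM, and mitochondrial enzymes 0.53 and 0.66 TPM. Only the cytosolic group moved by more than 2-fold among these 4, and in it Car2, Car7 and Car13 together with Car1 were small beside Car3.

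The difference between the libraries was then read from counts, scaled with TMM (a scaling on the bulk of genes). A gene was called at a Benjamini-Hochberg adjusted p below 0.05 in an exact binomial test across all genes and a difference of at least 2-fold. That test holds counting error only and compares these 2 libraries. Of the 8 members with a mean count of at least 10, 2 were called higher in replicate 2, Car3 and Car13, and 0 were called higher in replicate 1. Over all 14959 genes tested, 4.47% were called higher in replicate 2 and 1.70% higher in replicate 1. No member lay lower in replicate 2 at an unadjusted p under 0.05. Since the members were picked with such differences known, nothing is read from their count. The median log2 ratio of the 8 was 0.44, and that of all genes tested was 0.01.

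Car3 was 3.66 times higher in replicate 2 (95% exact counting interval 3.57 to 3.75), and 249 of the 14959 genes had a larger ratio. Car13 was 2.65 times higher (1.21 to 6.40), from its 9 and 27 counts. That call was lost without the filter on low counts, in edgeR's exact test and in the second quantification. On the scale of TPM + 0.5 the ratio of Car13 was 1.35, and of TPM + 0.1 it was 1.96, both below 2-fold.

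Car8 had 79 and 158 counts, a ratio of 1.77 (1.34 to 2.34), and Car2 had 231 and 421 counts, a ratio of 1.61 (1.37 to 1.90). Both intervals lie above 1 and neither gene reached 2-fold. Scaled on the spike-ins, which raises every log2 ratio by 0.22, Car8 rose to 2.06 and was called. With a 1.5-fold threshold both genes were called.

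Of the remaining members, Car12 (1.77, 0.55 to 6.58) had too few counts to be tested. Car5b had 56 and 73 counts (ratio 1.15, 0.80 to 1.66) and Car4 had 68 and 81 (1.05, 0.75 to 1.47). Car14, with 946 and 1061 counts, had a ratio of 0.99 (0.91 to 1.08), so a difference of 2-fold lies well outside its interval. Its ratio passed to the other side of 1 with total counts (1.02), with the spike-ins (1.15) and in TPM + 0.5 (1.04). Car11 had 194 and 184 counts, a ratio of 0.84 (0.68 to 1.03). In TPM + 0.5 its ratio was 1.04 instead, because the effective length of the gene in the deposited table was 873 bases in replicate 1 and 728 in replicate 2.

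**Figure D2:**
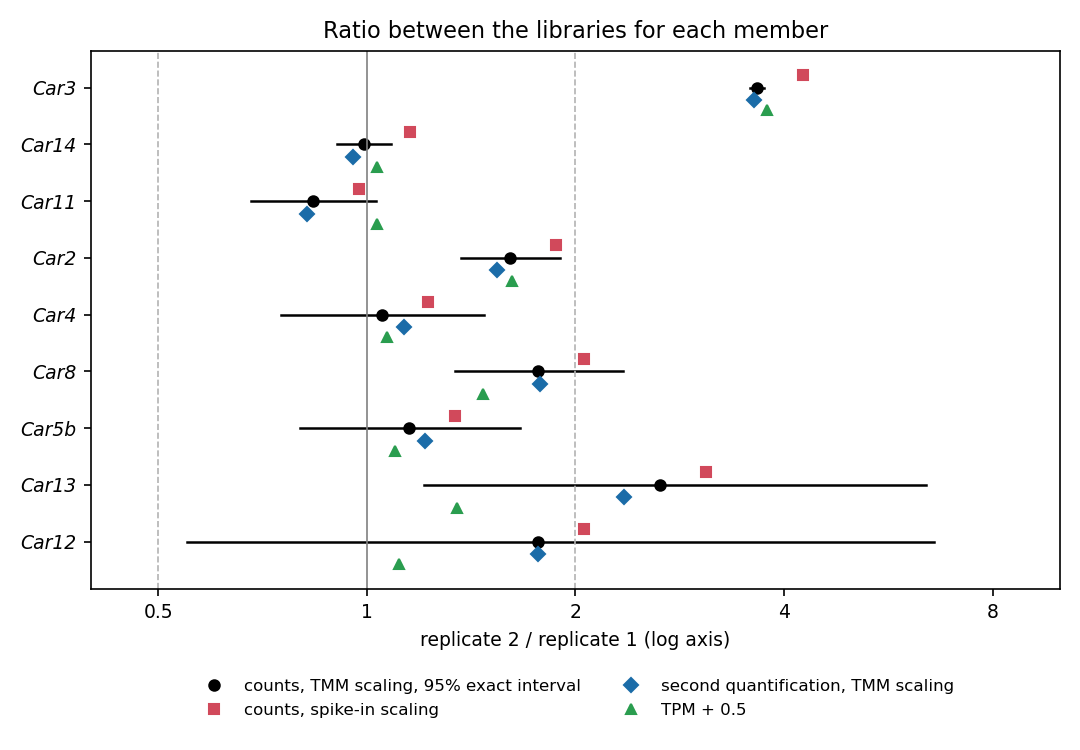
Ratio of replicate 2 to replicate 1 (log axis) for each member, ordered by mean TPM. Black points with bars are TMM-scaled counts with 95% exact counting intervals, and coloured symbols are the spike-in scaling, the second quantification and TPM + 0.5. Car3 lies between 3.62 and 4.26 in all 4, while Car14 and Car11 lie close to 1 and change side with the scale.

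Markers of fibre types and of other cells were read beside these values. All 10 slow-type fibre markers were called higher in replicate 2, and their summed level was 244 TPM in replicate 1 and 2548 TPM in replicate 2. Their ratios ran from 4.27 for Casq2, the calsequestrin of slow fibres and heart, to 14.5 for Myl2, a slow light chain, all above the 3.66 of Car3 in these counts. In the second quantification Atp2a2, the slow calcium pump, had a ratio of 3.45 in place of 7.08 and lay below the 3.62 of Car3 there. Myl2 (40.02 and 564 TPM) and Myl3 (36.5 and 363 TPM), another slow light chain, were the most abundant of them. Car3 is known to be abundant in slow fibres, and the part that fibre make-up has in its difference was not tested. Of 12 fast-type markers, 2 were called, both higher in replicate 2: Myh2 (ratio 3.73) and Myh1 (2.20), the IIa and IIx myosin heavy chains. Their sum, led by Tnnt3 (18401 and 15168 TPM) and Myh4 (15964 and 11005 TPM), was 108200 and 82910 TPM. In whole tissue, fewer cells of a type and less RNA per cell cannot be told apart.

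Fat cells are another known site of Car3. Of 10 white adipocyte markers, 2 were called higher in replicate 2 (Adipoq 2.27 and Lep 2.90, both hormones) and 3 higher in replicate 1 (Retn 0.41, Fasn 0.37 and Thrsp 0.48). Their summed level was 154 TPM in replicate 1 and 135 TPM in replicate 2. The markers not called were Cidec (ratio 1.67), Plin1 (1.2), Lipe (1.135), Plin4 (0.89) and Cfd (0.53). The part of fat cells in the difference of Car3 was not tested. Plin4 (64.8 and 59.9 TPM), a lipid-droplet protein that muscle also expresses, and Cfd (35.4 and 19.4 TPM) led the list.

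For Car4, the markers of capillary endothelium summed to 72.2 and 97.5 TPM, and 2 of 10 were called higher in replicate 2, Kdr (2.13) and Cldn5 (2.18), the latter not in the second quantification. Gpihbp1 (15.6 and 19.2 TPM) and Cdh5 (13.2 and 17.0 TPM) were the most abundant of them. For Car2 and Car1, the red-cell markers summed to 371 and 483 TPM with 0 of 5 tested called, and were led by the globins Hba-a1 (138 and 168 TPM) and Hbb-bs (130 and 171 TPM). Slc4a1, the anion exchanger of red-cell membranes, had 0 counts in replicate 1, which allows up to 3, and 4 in replicate 2. Schwann cell markers summed to 30.1 and 44.04 TPM, with 3 of 8 called higher in replicate 2 (Prx 2.075, Sox10 2.45 and Ncmap 2.06), led by Pmp22 (9.55 and 14.3 TPM) and Mbp (9.73 and 11.5 TPM). Tendon and fibroblast markers summed to 348 and 358 TPM, led by Dcn (139 and 159 TPM) and Col3a1 (48.2 and 30.5 TPM). Macrophage markers summed to 25.9 and 29.3 TPM, led by C1qc (5.11 and 6.68 TPM) and C1qa (5.22 and 6.42 TPM). Neither of these last 2 lists had a called gene. Their part in the levels of Car2 and Car4 was not tested.

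**Figure D3:**
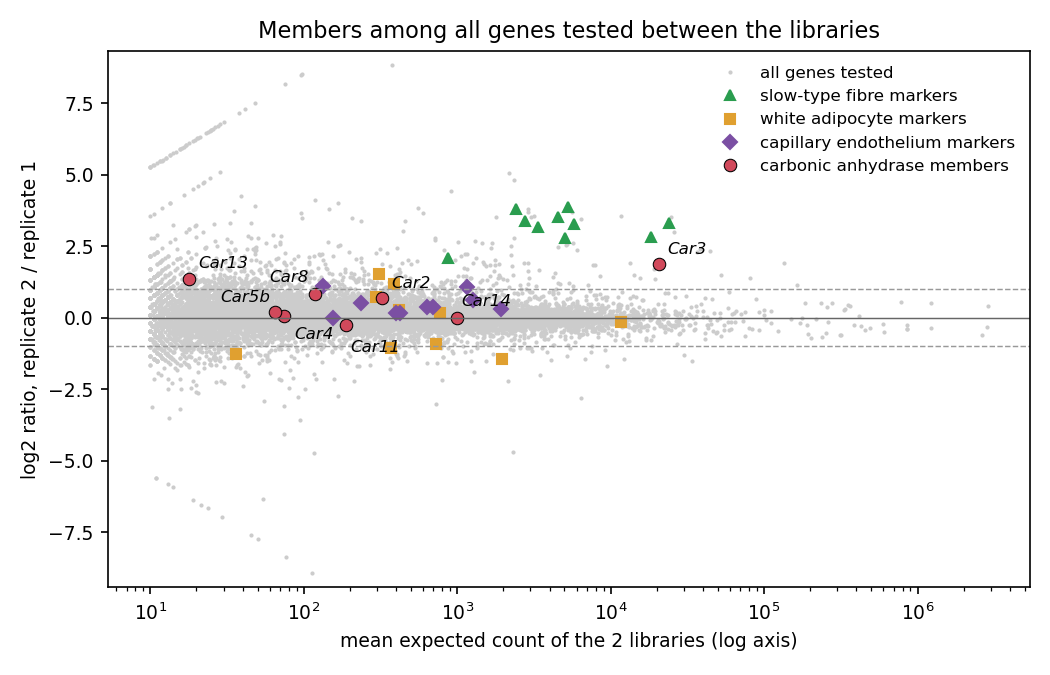
Log2 ratio of replicate 2 to replicate 1 against the mean expected count (log axis) for the 14959 genes tested (grey), with the 8 tested members in red and 3 marker lists in colour. Dashed lines mark 2-fold. Car3, at a log2 ratio of 1.87, lies below all 10 slow-type fibre markers in these counts (in the second quantification Atp2a2 lies below Car3), Car13 lies beyond 2-fold at few counts, and the other members lie within 2-fold.

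The deposited transcript tables show which forms of each gene were counted. Car3 was nearly all its full coding form: Car3-201 took 99.2% of the gene's TPM in replicate 1 and 99.03% in replicate 2. Car8 and Car13 have 1 annotated transcript each. Car5b-201, the coding form of Car5b, took 95.9% and 96.9%. Car2 was mostly Car2-201 (87.4% and 85.4%), with the shorter coding form Car2-202 at 12.6% and 13.2%. Car14 was split between Car14-201, the full form of 337 codons (68.8% and 66.2%), the shorter coding form Car14-203 (20.9% and 25.9%) and the intron-retaining Car14-204 (9.06% and 7.97%). Car12 was given to Car12-201 in replicate 1 and to Car12-202 (63.9%) and the intron-retaining Car12-205 (36.1%) in replicate 2, on 5 and 10 counts, too few to place its forms.

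Car11 stood apart in the make-up of its RNA. Its only coding form, Car11-201, took 38.4% of the gene's TPM in replicate 1 and 25.5% in replicate 2 (31.95 ± 9.06%, SD, n = 2). The rest went to intron-retaining forms, Car11-205 (19.3% and 23.5%) and Car11-204 (11.0% and 9.20%), and to forms marked for nonsense-mediated decay, Car11-202 (15.7% and 20.8%) and Car11-203 (15.7% and 21.03%). Car11-203 is 252 bases long and took its share from 5.33 and 8.14 counts. In counts the coding form held 65.3% and 52.1%, a larger part than in TPM. Counted by coding forms alone, Car11 had 2.70 and 1.87 TPM against 4.76 and 7.91 TPM for Car2, so the overlap between these genes rested on the noncoding forms of Car11.

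The second quantification of the same reads gave higher TPM for every member in both libraries. Over protein-coding genes at 1 TPM or more in both libraries its TPM was a median 1.40 times that of the first in replicate 1 and 1.315 times in replicate 2. Car3 had 195 and 687 TPM there (1.21 and 1.13 times), Car14 27.8 and 25.55 TPM (1.26 and 1.12 times) and Car2 6.57 and 11.0 TPM. The rises of Car3 and Car14 were thus smaller than the median. Their counts fell, to 0.88 and 0.87 times the first for Car3 and 0.85 and 0.82 times for Car14. The median count factor over the same protein-coding genes was 1.06 in both libraries. Car4, with 3.81 and 4.25 TPM, was 2.05 and 2.10 times its first value from almost the same counts (64 and 82). Its forms were divided differently. Car4-201 took 100% in the first quantification but 47.6% and 47.2% in the second, where Car4-206, a form of 692 bases marked for nonsense-mediated decay, took 45.1% and 49.5%. The coding forms of Car4 stood at 2.09 and 2.15 TPM there, against 1.86 and 2.02 TPM in the first, a smaller rise than the median. They held 74.7% and 72.2% of the gene's counts there, against 100% in the first. Car11 had 14.2 and 11.8 TPM in the second, with Car11-201 at 21.2% and 20.4%, Car11-202 at 41.6% and 46.5% and Car11-203 at 0%. Car14-201 kept 67.4% and 68.3%, while the intron-retaining Car14-202 went from at most 1.25% to 10.3% and 8.605%. In the second quantification Car11 lay above Car2 without overlap, unlike in the first. Counted by coding forms alone, Car11 lay below Car2 there, with 3.01 and 2.41 TPM against 6.57 and 10.88 TPM.

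**Figure D4:**
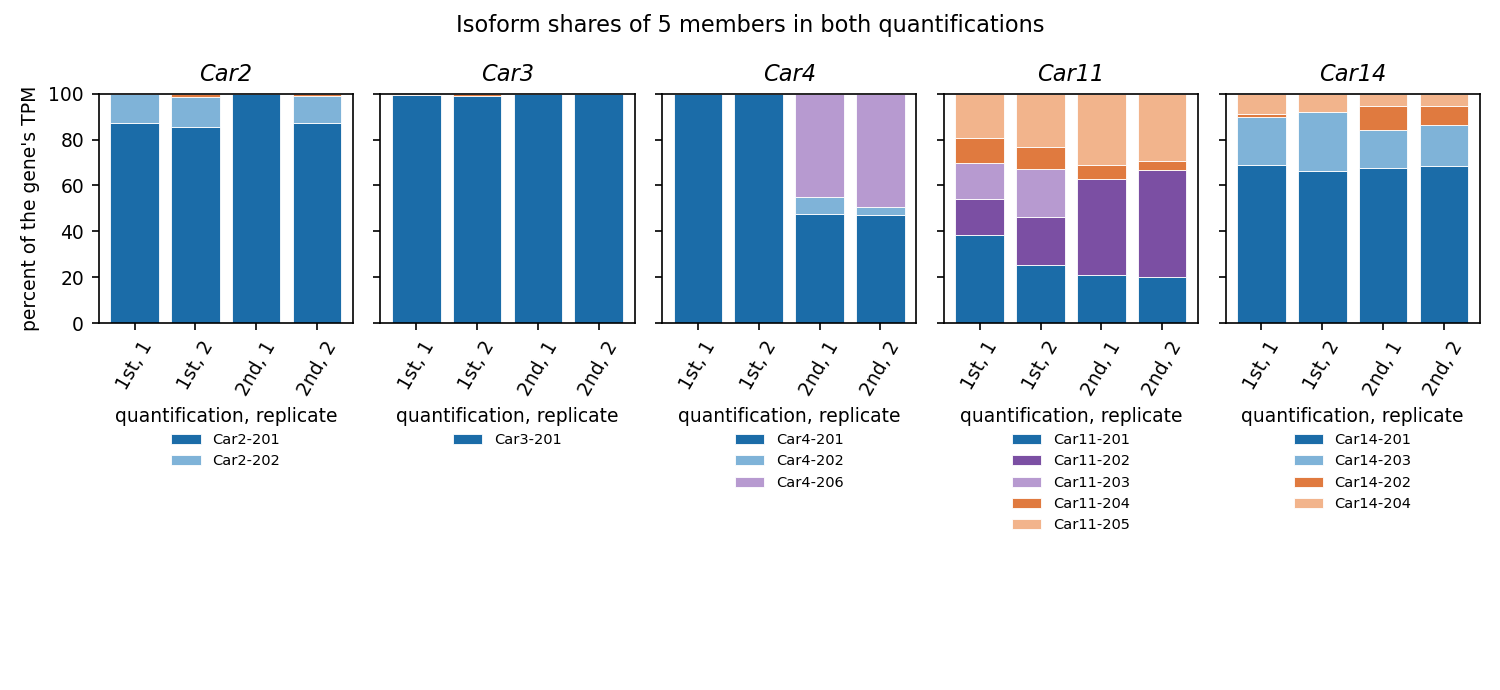
Share of each gene's TPM (percent) taken by its transcripts in the first and second quantification and in replicates 1 and 2, for 5 members. Blue shades are coding forms, purple shades forms marked for nonsense-mediated decay and orange shades intron-retaining forms. Car3 is almost wholly 1 coding form, Car4 is split only in the second quantification, and the coding form of Car11 takes 20.4% to 38.4%.

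Genes that work with carbonic anhydrases were read from lists of function. Of 26 genes listed under bicarbonate, proton and lactate transport, partner proteins included, 21 had enough counts. Higher in replicate 2 were Slc16a1 (5.52 and 14.2 TPM, ratio 2.49, 2.29 to 2.71), the lactate carrier of oxidative fibres, and Slc4a3 (1.37 and 3.89 TPM, ratio 2.01, 1.635 to 2.49), an anion exchanger that was not called in the second quantification. Slc4a10, a sodium-coupled bicarbonate carrier, was lower in replicate 2 (0.85 and 0.44 TPM, ratio 0.40, 0.25 to 0.61). The most abundant were Bsg, the partner protein of the lactate carriers (268 and 228 TPM), and Slc16a3, the lactate carrier of glycolytic fibres (143 and 108 TPM), neither of them called. The list's median log2 ratio was -0.02.

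Of 9 listed enzymes that use bicarbonate, 1 was called. Cps1, the first enzyme of the urea cycle, had 0 counts in replicate 1 and 38 in replicate 2, at least 11.2-fold higher against a floor of 3 counts in replicate 1. The 95% exact counting interval of its ratio, which also holds the error of the 38 counts, starts at 8.66, and its level in replicate 2 was 0.20 TPM. Acacb, which makes the malonyl-CoA that restrains fat burning in muscle (56.5 and 66.7 TPM), and Pcx, pyruvate carboxylase (34.0 and 24.2 TPM), were the most abundant and were not called. The 3 inositol trisphosphate receptors, 1 of which Car8 is known to bind, were not called. Itpr1 had 7.31 and 8.44 TPM (ratio 1.08, 1.02 to 1.15) and Itpr2 2.04 and 2.29 TPM, beside the 1.77 of Car8. The 2 receptor phosphatases with a carbonic anhydrase-like outer part were not called either: Ptprg had 7.66 and 8.96 TPM (ratio 1.21) and Ptprz1 0.07 and 0.19 TPM.

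For each member with a mean of at least 1 TPM, the 3 protein-coding genes of nearest level were found by distance in log2(TPM + 1) over the 2 libraries. With only 2 libraries this likeness covers level and ratio alone. Nearest to Car3 were Fabp3, the fatty acid carrier of heart and oxidative muscle (137 and 507 TPM, distance 0.35), Actn2, a Z-disc actinin (125 and 630 TPM, 0.37), and Hspb6, a small heat shock protein (204 and 692 TPM, 0.38). Those distances were far larger than for the other members, whose nearest genes lay within 0.06. A distance also depends on how many genes lie near that level. Car3 ranked 315th and 67th among protein-coding genes, and Car14, the next member, 2266th and 2294th. Car14 was nearest to Aars, Mrps33 and Bud31, Car11 to Txnl4a, Gprasp1 and Psip1, Car2 to St6galnac4, Rnf31 and Tmem120b, and Car4 to Rad51d, Hist2h3c2 and Shroom4.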

How the data were processed

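Per the labels and the lists of files with each sample, reads were handled on mm10 with GENCODE M21. For aligner and quantifiers, names and versions: not given in the sources used here. Deposited gene tables and first transcript tables give expected counts, TPM and, per the file headers, the percent of isoform use and a posterior standard deviation of the count. The deposited second transcript table gives estimated counts and TPM, summed here per gene. Expected counts were rounded for tests.

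A 2-sided exact binomial test (R 4.3.3) compared rounded counts of the libraries, with TMM sizes from edgeR 4.0.16, over the 14959 genes whose mean count reached 10. Calls needed a Benjamini-Hochberg adjusted p below 0.05 and 2-fold on scaled counts + 0.5. Intervals are exact (95%) and cover counting error only. The test was tried on simulated counts that held counting error only, the same error that it assumes. That trial does not cover spread between animals or library preparations. edgeR's quasi-likelihood test needs replicated groups and was not run. Its exact test, used as an alternative, took a common dispersion (spread beyond counting error) from both libraries treated as replicates of each other. Differences between the libraries therefore entered that dispersion. Alternatives used DESeq2 1.42.0 size factors, total counts, spike-ins and other filters and thresholds. Residues were aligned with Biopython 1.88 (BLOSUM62, global).

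Members and lists were chosen with earlier results of these data known. Named were the 16 family genes, called and the 2 most abundant genes per function list, the 2 most abundant per marker list, the 3 genes nearest in level to each member at 1 TPM or more, and transcripts at 5% or more. Marker genes beyond those 2 are named where called, at an extreme or at 0, chosen after their values were seen. Of the white adipocyte markers, those not called are named too. Signal tracks and alignments were not used here. Some items that the rule takes are left out of the text.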

Additional observations from a re-analysis of the deposited data

How the results depend on the processing

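No paired analysis was possible because the series has 1 group. Of the 8 members tested, 2 were called higher in replicate 2. That count was 1 (Car3) without a filter on low counts, with a mean count of at least 100 (5 tested), with edgeR's exact test and in the second quantification, and 4 with a 1.5-fold threshold. Of 54 alternative ratios of members, 44 kept direction and call or stayed on the same side of 2-fold, 3 lost it (Car13, 2.35 and not called in the second quantification, 1.35 in TPM + 0.5 and 1.96 in TPM + 0.1), 1 gained one (Car8, 2.06 with the spike-ins) and 6 changed direction. These were Car14 with total counts (1.02), the spike-ins (1.15), TPM + 0.5 (1.04) and TPM + 0.1 (1.04), and Car11 with TPM + 0.5 and TPM + 0.1 (both 1.04). Over all genes tested, 669 of 14959 were called higher in replicate 2. Of the same 14959 it was 1057 with the spike-ins, 1190 at 1.5-fold and 219 in edgeR's exact test. It was 273 of 10302 at a mean count of at least 100, 753 of 23569 without a filter and 644 of 15746 in the second quantification. Those higher in replicate 1 were 255, and in the same order of settings 167, 568, 53, 94, 311 and 310. The family total was 201 and 655 TPM when either library was left out, and Car3's share 80.5% and 93.2%. Rescaling TPM to nuclear protein-coding genes multiplies all genes of a library by the same factor, so every member rose by construction. The mean of Car3, for example, went from 386 to 873 TPM. Car12 and Car13 are limited by depth, with at most 27 counts per library.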
